A study of Homo sapiens with 12 samples.

Results

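Genes of drug oxidation, drug efflux and fluoropyrimidine breakdown were followed across 8 human tumour cell lines. The set was named by symbol and held 10 genes, of which 9 were found among the 18334 genes measured, through 23 of 45220 array features. They were the receptor gene AHR, the cytochrome P450 genes CYP1A1, CYP1B1 and CYP3A5, the efflux transporter genes ABCB1, ABCC2, ABCC3 and ABCG2, and DPYD. No feature carried ABCC1 as its single symbol, and ABCC1 was not analysed here. ABCB1 was read by 10 features, CYP3A5 and DPYD by 3 each, ABCC2 by 2 and the other members by 1 each.

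Each of 12 two-channel arrays set RNA of 1 line beside RNA of a shared human standard, called the reference below. The title of the study concerns tissue factor in xenografts of pancreatic cancer. Panc1 and MiaPaca2 had 2 arrays each with a DMSO label, DMSO being a common drug solvent, and MiaPaca2 had 1 further array without a media label. Capan2, HPAC and HPAFII had 1 array each without a media label. HT29 had 2 arrays with the DMSO label, and HCT-116 and SW620 had 1 array each without one. The study text describes the 8 lines together as pancreatic. Cell banks list HCT-116, HT29 and SW620 as colorectal cancer lines, which is the origin used below. Apart from DMSO the labels name no treatment and no genetic change. No label speaks of separate cultures for the arrays of a group. The p-values between groups of arrays therefore weigh a difference only against the spread within DMSO-labelled pairs, and that spread may be technical. Precision is limited by how few arrays each group has.

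A level below is a deposited ratio, read as log2 with the cell line on top and the reference beneath. That direction is likely from the dyes but not stated, and turning it would turn every sign. Ratios of different genes are not set against each other, because each depends on the gene's amount in the reference. Each array read the RNA of a whole culture, so fewer expressing cells and less RNA per cell cannot be told apart. Across genes, the correlation lay between 0.874 and 0.941 for arrays within a group and between 0.37 and 0.731 for arrays from different lines. The MiaPaca2 array without a media label correlated with the DMSO-labelled ones at 0.836 to 0.86, below every pair of one group. The epithelial gene EPCAM ran from 2.66 to 4.03 in the lines other than Panc1, at -0.92, and MiaPaca2, at -5.94. CDH1, another epithelial gene, was low in SW620 (-2.86) as well as in Panc1 (-2.76) and MiaPaca2 (-5.53), and above 0 elsewhere. The epithelial genes KRT8 and KRT18 lay below 0 only in Panc1 and MiaPaca2, and KRT19 only in MiaPaca2. Of 5 intestinal markers measured, the median was 3.05 in HPAFII, 1.68 in HT29 and 0.24 to 0.49 in the other lines, so it did not single out the colorectal lines. The medians of 4 liver markers and of 4 blood and endothelial markers lay below 0 in every line, although CD3E (0.04 to 0.49) and CDH5 (0.21 to 0.59) lay above 0 in every line.

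The aryl hydrocarbon receptor is a transcription factor that binds dioxin-like and other planar compounds, moves into the nucleus, pairs with ARNT and raises transcription of CYP1A1 and CYP1B1 through short DNA elements. CYP1 and CYP3A enzymes oxidise drugs, hormones and carcinogens, and conjugating enzymes then prepare the products for export. ABC transporters pump drugs and conjugates out of cells with energy from ATP, and several are known from drug-resistant tumour cells. Dihydropyrimidine dehydrogenase, the product of DPYD, starts the breakdown of uracil, thymine and the drug fluorouracil, which is given for both pancreatic and colorectal cancer.

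Promoter windows of 250 bases before and 50 bases from the start site on were given by RefSeq (GRCh38.p14) for 7 of the 10 genes. Those of the receptor gene, of its target CYP1A1 and of ABCC2 are shown because MiaPaca2 had the lowest AHR and, with HCT-116, the highest ABCC2 levels, while CYP1A1 hardly varied. Capitals mark the receptor's core motif GCGTG, the GC box GGGCGG and the letters TATAAA, each searched on both strands.
CYP1A1 (chr15:74725479-74725778, minus strand): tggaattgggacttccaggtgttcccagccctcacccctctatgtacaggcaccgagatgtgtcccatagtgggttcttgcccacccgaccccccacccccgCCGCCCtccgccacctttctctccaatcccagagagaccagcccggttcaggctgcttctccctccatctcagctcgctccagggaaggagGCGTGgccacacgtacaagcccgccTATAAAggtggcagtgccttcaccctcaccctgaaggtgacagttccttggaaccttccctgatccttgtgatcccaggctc
AHR (chr7:17298402-17298701, plus strand): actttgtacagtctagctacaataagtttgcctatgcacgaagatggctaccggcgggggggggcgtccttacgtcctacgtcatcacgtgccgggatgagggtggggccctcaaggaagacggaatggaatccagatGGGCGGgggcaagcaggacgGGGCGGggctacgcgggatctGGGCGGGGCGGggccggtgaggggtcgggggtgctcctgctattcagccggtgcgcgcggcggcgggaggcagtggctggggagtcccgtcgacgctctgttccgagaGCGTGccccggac
ABCC2 (chr10:99782390-99782689, plus strand): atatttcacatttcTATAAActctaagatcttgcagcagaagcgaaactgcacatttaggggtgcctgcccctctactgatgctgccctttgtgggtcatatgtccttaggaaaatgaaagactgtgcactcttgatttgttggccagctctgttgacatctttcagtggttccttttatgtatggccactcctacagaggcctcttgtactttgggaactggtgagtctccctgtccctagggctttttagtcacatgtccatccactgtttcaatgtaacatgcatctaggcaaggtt
The CYP1A1 window held 1 GCGTG beginning at base -57 from the start site, 1 TATAAA beginning at base -32 and 1 GC box on the other strand. The AHR window held 4 GC boxes, a pair of which share 1 base, and 1 GCGTG at base 38 after the start. The ABCC2 window held only TATAAA, beginning at base -236. Of 27305 RefSeq windows of 300 bases, 1 for each gene, 36.3% held GCGTG, 44.6% the GC box and 11.95% TATAAA. These matches describe letters in the windows and show no binding.

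**Figure D1:**
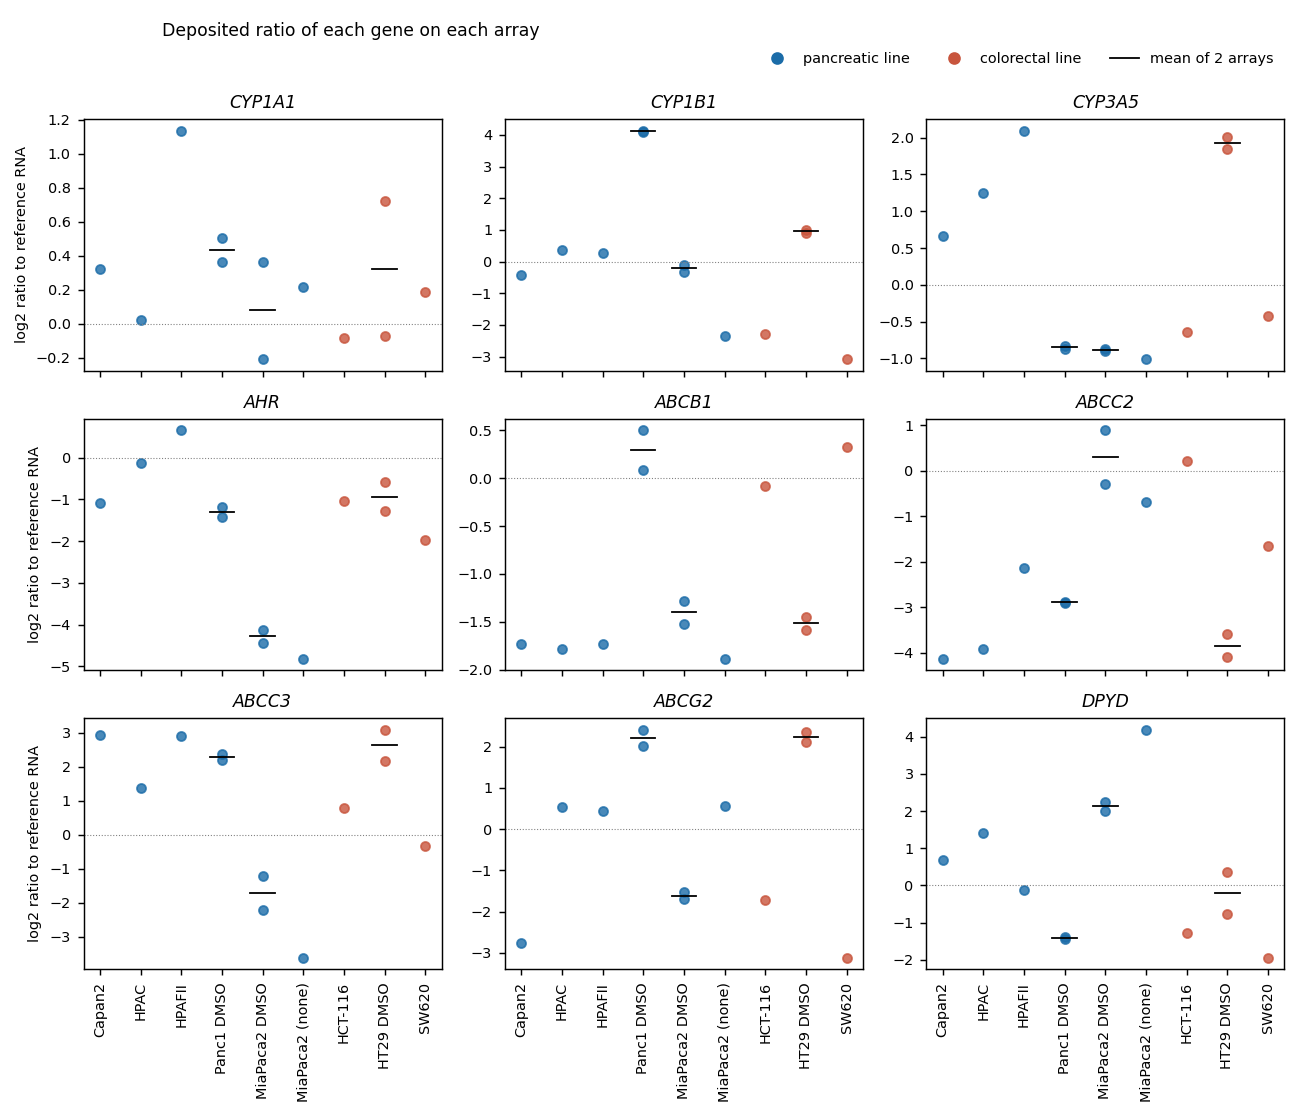
Deposited log2 ratio of each gene to the reference RNA (vertical axis, scaled per gene) on each of the 12 arrays, by cell line and media label (horizontal axis, with "none" for MiaPaca2 without a media label). Points are arrays and black lines are means of 2 arrays. AHR lies between -4.81 and -4.13 on the 3 MiaPaca2 arrays and between -1.97 and 0.66 on the others, and CYP1B1 stands at 4.10 and 4.14 in Panc1.

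AHR (chr7:17298652-17346147 in GRCh38.p14, as are all gene positions below) was lowest in MiaPaca2. Its level was -4.13 and -4.43 on the DMSO-labelled MiaPaca2 arrays and -4.81 on the unlabelled one. It was -1.44 and -1.18 in Panc1, -1.29 and -0.58 in HT29, -1.97 in SW620, -1.03 in HCT-116, -1.08 in Capan2, -0.12 in HPAC and 0.66 in HPAFII. The 3 MiaPaca2 arrays lay below the 9 others with no overlap, and the gap of 2.31 between MiaPaca2 with the DMSO label and the next line, SW620, passed the test (limma, adjusted p = 0.00268). Of all genes, 20.8% passed between these groups. In the order of the 9 groups of line and media label, no other step with a DMSO-labelled group passed. Here and below the order comes from the levels tested, a single array is assumed to vary like the DMSO-labelled pairs, and steps between 2 single arrays are given without a test.

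CYP1A1 (chr15:74719542-74725528), whose product is a classic readout of receptor activity, varied little. Its level ran from -0.21 and 0.36 on the DMSO-labelled MiaPaca2 arrays, through 0.50 and 0.36 in Panc1 and 0.72 and -0.08 in HT29, to 1.14 in HPAFII. The remaining arrays lay between -0.09 and 0.32. Its SD over the 8 line means was 0.37, against a median of 0.52 over all genes, and the pooled SD of the DMSO-labelled pairs was 0.41, against a median of 0.24. HPAFII was highest, but its gap to the next group did not pass (limma, adjusted p = 0.206), and CYP1A1 passed in none of the 36 pairs of groups. Without intensities it cannot be told whether this single feature was above background, and a feature near background gives ratios near 0 whatever the line.

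CYP1B1 (chr2:38067509-38076151), whose product hydroxylates oestrogens and polycyclic hydrocarbons, had the widest range of the members over line means, 7.2, and its SD over lines was larger than that of 98.3% of genes. It stood at 4.14 and 4.10 in Panc1 and at 1.00 and 0.90 in HT29, followed by 0.35 in HPAC and 0.28 in HPAFII. In MiaPaca2 it was -0.11 and -0.33 with the DMSO label and -2.36 without a label. Capan2 lay at -0.43, HCT-116 at -2.30 and SW620 at -3.08. Panc1 did not overlap any other line, and its gap of 3.16 to HT29 passed (limma, adjusted p = 1.76e-05). No other step with a DMSO-labelled group passed, and the widest of the others, between the single arrays of Capan2 and HCT-116, was 1.87. Panc1, where CYP1B1 was highest, had an AHR level within the range of the lines other than MiaPaca2.

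CYP3A5 (chr7:99648194-99679996), which encodes a CYP3A enzyme of liver and intestine, lay above 0 in 4 lines and below it in the other 4. As a mean of its 3 features it was 2.10 in HPAFII, 2.02 and 1.85 in HT29, 1.24 in HPAC and 0.66 in Capan2. It was -0.43 in SW620, -0.64 in HCT-116, -0.84 and -0.87 in Panc1, -0.90 and -0.87 in DMSO-labelled MiaPaca2 and -1.01 in MiaPaca2 without it. No step with a DMSO-labelled group passed. The gap across 0, between the single arrays of Capan2 and SW620, was 1.08, and pancreatic and colorectal lines lay on both sides.

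The mean hid a disagreement between the CYP3A5 features. Feature b, annotated to the RefSeq transcript, ran from -3.94 in the unlabelled MiaPaca2 array to 3.45 in HPAFII, a range of 7.39. Feature a ran from -0.08 to 2.51 with HPAFII and HT29 high, and feature c stayed between -0.01 and 0.63 on all arrays. Features a and c are annotated to CYP3A5 sequence records outside RefSeq. In Panc1 feature b stood at -3.30 and -3.15 while feature c stood at 0.59 and 0.63. The averaged CYP3A5 differences below are therefore smaller than those of feature b, and CYP3A genes are close copies of each other whose signals on such features may not be separate.

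**Figure D2:**
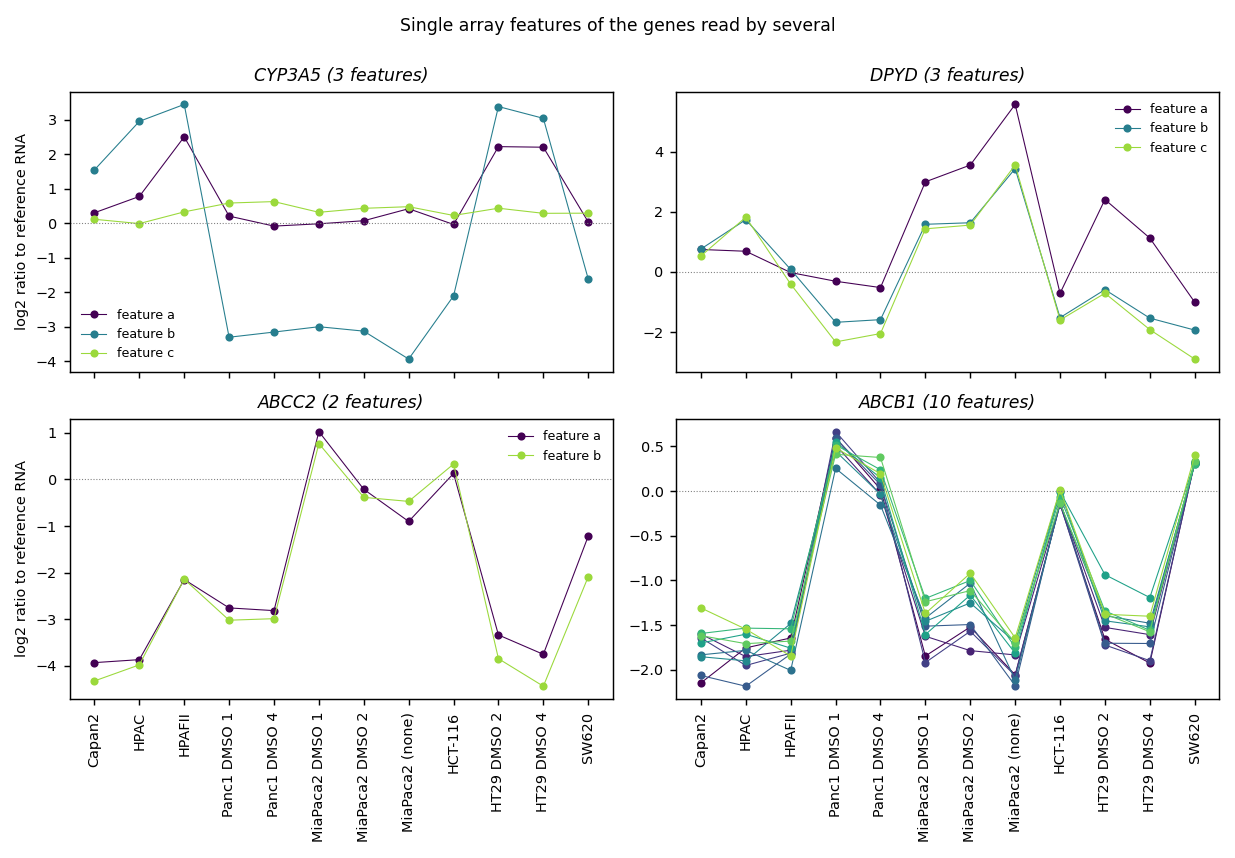
Deposited log2 ratio to the reference RNA (vertical axis) of each single array feature of CYP3A5, DPYD, ABCC2 and ABCB1 on the 12 arrays (horizontal axis, numbers after DMSO are replicate numbers). Each colour is 1 feature, and lines join points of a feature only to guide the eye. The 3 CYP3A5 features spread by up to 4.42 on 1 array, against at most 0.87 for the ABCB1 and ABCC2 features.

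Among the transporters, ABCB1 (chr7:87503017-87713295), which encodes P-glycoprotein, was near the reference in 3 lines and below it in the other 5. It stood at 0.50 and 0.09 in Panc1, at 0.32 in SW620 and at -0.09 in HCT-116. It was -1.52 and -1.29 in MiaPaca2 with the DMSO label and -1.88 without it, -1.45 and -1.59 in HT29, -1.74 in Capan2, -1.74 in HPAFII and -1.78 in HPAC. The 2 sets were drawn from these same levels, so their lack of overlap tests nothing. The step of 1.32 from HCT-116 down to MiaPaca2 with the DMSO label passed (limma, adjusted p = 0.0155, beside 20.3% of all genes). No other step with a DMSO-labelled group did. Each of the 10 features that make up the mean gave the same split, and they spread by at most 0.87 on any array.

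ABCC2 (chr10:99782640-99852594), which encodes an apical pump for glutathione and glucuronide conjugates, was highest in MiaPaca2 and HCT-116. Its level was 0.90 and -0.30 in MiaPaca2 with the DMSO label, -0.69 without it and 0.23 in HCT-116. SW620 followed at -1.65, HPAFII at -2.14 and Panc1 at -2.89 and -2.90. HT29, HPAC and Capan2 were lowest, at -3.59 and -4.09, at -3.92 and at -4.13. In this order no step with a DMSO-labelled group passed.

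ABCC3 (chr17:50634881-50692253), which encodes a basolateral pump for conjugates and bile acids, was lowest in MiaPaca2. It was 2.93 in Capan2, 2.90 in HPAFII, 2.16 and 3.09 in HT29, 2.21 and 2.36 in Panc1, 1.36 in HPAC, 0.80 in HCT-116 and -0.33 in SW620. MiaPaca2 had -1.20 and -2.20 under the DMSO label and -3.62 without it, and these arrays did not overlap any other line. Between neighbours, no step with a DMSO-labelled group passed. By the distance between centred profiles of line means, ABCC3 and AHR were the closest pair of members (0.954 log2 units, root mean square over 8 lines) and CYP1B1 and ABCC2 the farthest (3.22).

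ABCG2 (chr4:88090264-88231626), which encodes the breast cancer resistance protein, a pump that exports topoisomerase inhibitors and porphyrins, was highest in HT29 and Panc1. It was 2.01 and 2.41 in Panc1 and 2.10 and 2.34 in HT29, which overlapped. HPAC stood at 0.53, HPAFII at 0.44 and the unlabelled MiaPaca2 array at 0.57, whereas MiaPaca2 with the DMSO label stood at -1.70 and -1.54. HCT-116 was at -1.73, Capan2 at -2.77 and SW620 at -3.12. The steps from Panc1 to the unlabelled MiaPaca2 array (1.64, limma adjusted p = 0.0055, beside 23.2% of all genes) and from HPAFII to MiaPaca2 with the DMSO label (2.05, limma adjusted p = 0.00126, beside 28.8% of all genes) passed. Both steps join line with media label, and HPAFII differed by -0.13 from the unlabelled MiaPaca2 array. ABCG2 passed in 29 of the 36 pairs of groups, the highest number among the members.

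As the mean of its 3 features, DPYD (chr1:97077743-97921059) was highest in MiaPaca2. Its level was 2.01 and 2.25 with the DMSO label and 4.19 without it, followed by 1.42 in HPAC, 0.68 in Capan2 and -0.11 in HPAFII. HT29 had 0.37 and -0.78, HCT-116 -1.28, Panc1 -1.44 and -1.38 and SW620 -1.95. The 3 MiaPaca2 arrays lay above all others in this mean, and no step with a DMSO-labelled group passed. Features b and c, both annotated to the RefSeq transcript, put HPAC (1.74 and 1.82) above the DMSO-labelled MiaPaca2 arrays (1.59 and 1.64 for b, 1.44 and 1.56 for c), and the unlabelled one highest. Feature a put all 3 MiaPaca2 arrays above HPAC (0.69). The features spread most, by 3.12, on HT29 replicate 2, where a read 2.41 and b and c -0.59 and -0.71.

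Differences among the 9 groups went beyond the spread of the DMSO-labelled pairs for 8 of the 9 members (limma F-test, Benjamini-Hochberg, adjusted p from 8.78e-06 for CYP1B1 to 0.000899 for ABCB1). CYP1A1 did not pass (adjusted p = 0.404). Over all genes 57.2% passed this test. The 8 members passed in 18 to 29 of the 36 pairs of groups, with 21 for AHR, 22 for CYP3A5, 23 for DPYD and 25 for CYP1B1. Over all genes and pairs 19.8% passed, with a median of 5 pairs for a gene. The members, and the pathway lists below, were chosen with earlier results of these data known. Their counts beside those of all genes, here and below, therefore test nothing about the set. In this fit single arrays are assumed to vary like the DMSO-labelled pairs, which give its only 3 residual degrees of freedom.

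**Figure D3:**
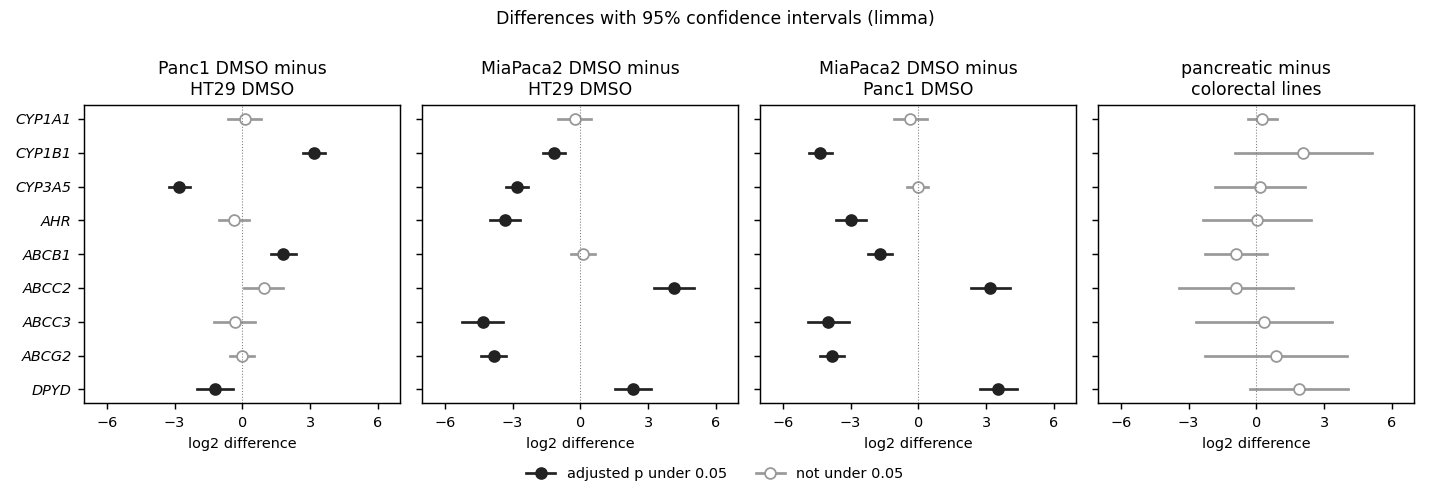
Log2 difference of each member (horizontal axis, first group minus second) with its 95% confidence interval from limma, in 4 comparisons. Filled points had an adjusted p under 0.05 over all genes. 7 of 9 points are filled in each comparison of MiaPaca2 with another line, 4 in Panc1 against HT29 and none in pancreatic against colorectal lines.

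In Panc1, CYP1B1 and ABCB1 were higher than in HT29 and CYP3A5 and DPYD lower. With the DMSO label on both, CYP1B1 differed by 3.16 (SE 0.213, limma, adjusted p = 1.76e-05) and ABCB1 by 1.81 (SE 0.238, adjusted p = 0.000629). CYP3A5 differed by -2.78 (SE 0.209, adjusted p = 3.16e-05), where feature b alone gave -6.44, feature a -2.15 and feature c 0.25. In the fit of single features a and b passed and c did not, beside 30.1% of all features. DPYD differed by -1.21 (SE 0.354, adjusted p = 0.0278). That call was lost with the median of the features (-0.57), without HT29 replicate 2 (-0.64) and without either Panc1 array (-1.18 and -1.23), and also with all MiaPaca2 arrays as one group, at adjusted p of 0.0797 to 0.206. The 4 calls among 9 members stand beside 37.3% of all genes, with 2 higher beside 21.4% and 2 lower beside 15.9%. ABCC2 had a difference of 0.95 that missed the threshold (adjusted p = 0.0846) and met it without one or the other DMSO-labelled MiaPaca2 array (0.0194), which alters only the estimate of spread. AHR (-0.37), ABCC3 (-0.34), CYP1A1 (0.11) and ABCG2 (-0.01) did not pass, with intervals of -1.03 to 0.28, -1.25 to 0.57, -0.62 to 0.84 and -0.56 to 0.54.

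In MiaPaca2, most members differed from HT29, and ABCC2 and DPYD were the ones that were higher. ABCC2 was higher by 4.14 (SE 0.38, limma, adjusted p = 0.000106) and DPYD by 2.33 (SE 0.354, adjusted p = 0.00158). ABCC3 was lower at -4.33 (SE 0.396), ABCG2 at -3.84 (SE 0.239), AHR at -3.35 (SE 0.286), CYP3A5 at -2.82 (SE 0.209) and CYP1B1 at -1.17 (SE 0.213), with adjusted p from 1.39e-05 for ABCG2 to 0.00389 for CYP1B1. These 7 calls, 2 higher and 5 lower, stand beside 31.9% of all genes, or 17.4% higher and 14.5% lower. The averaged CYP3A5 value again joined -6.28 for feature b, -2.19 for feature a and 0.01 for feature c. Of these a and b passed, beside 22.8% of all features. Of 5 epithelial markers, 4 were lower in Panc1 and 5 in MiaPaca2 than in HT29 by line means, with KRT19 in Panc1 the exception. Of 4 mesenchymal markers, 4 were higher in Panc1 and 3 in MiaPaca2 than in HT29, but FN1 (-3.42 and -3.87, against -3.60 in HT29) and, in MiaPaca2, CDH2 (-3.47, against -3.51) differed little. EPCAM stood at -0.92 in Panc1 and -5.94 in MiaPaca2, against 3.42 in HT29, and the mesenchymal gene VIM at 1.70 and 1.37, against -4.71 in HT29 (line means). Their part in the differences was not tested. CYP1A1 and ABCB1 did not pass (-0.25 and 0.11, limma, adjusted p = 0.607 and 0.753).

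MiaPaca2 also differed from Panc1 in most members. With the DMSO label on both, the MiaPaca2 level of CYP1B1 was lower than in Panc1, with a difference of -4.34 (SE 0.213, adjusted p = 1.26e-05 in limma). Lower too were ABCC3 at -3.99 (SE 0.396), ABCG2 at -3.83 (SE 0.239), AHR at -2.98 (SE 0.286) and ABCB1 at -1.70 (SE 0.238). DPYD was higher by 3.54 (SE 0.354, adjusted p = 0.000334) and ABCC2 by 3.19 (SE 0.38, adjusted p = 0.000836). The 7 calls, 2 higher and 5 lower, stand beside 18.7% of all genes, or 7.4% higher and 11.3% lower. All 3 DPYD features passed in their own fit, where 11.4% of all features did. CYP3A5 was low in both lines and differed by -0.03 with an interval of -0.51 to 0.45, and CYP1A1 by -0.35 with an interval of -1.09 to 0.38. The 3 comparisons share arrays, so their values are set side by side only.

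MiaPaca2 with the DMSO label differed from the MiaPaca2 array without a label in CYP1B1 and ABCG2, in opposite directions. CYP1B1 was higher by 2.14 (SE 0.261, limma, adjusted p = 0.0213) and ABCG2 was lower at -2.18 (SE 0.293, adjusted p = 0.0259), in a comparison that called 0.6% of all genes, 0.3% higher and 0.3% lower. Both calls were lost without MiaPaca2 replicate 1 (2.03 and -2.10), and that of ABCG2 also without either HT29 array. Fitted over all features in place of genes, where 0.0199% were called, the same differences did not pass (limma, adjusted p = 0.111 for CYP1B1 and 0.122 for ABCG2). ABCC3 (1.92) and DPYD (-2.06) did not pass, with adjusted p = 0.114 and 0.0824. The unlabelled group is a single array, so DMSO and anything else that set this array apart cannot be told apart. The lines with a single array carried no media label either. Media label and line are therefore joined in every comparison of them with HT29, Panc1 or DMSO-labelled MiaPaca2. The latter include steps given above for AHR, ABCB1 and ABCG2. With no label on either side, MiaPaca2 differed from SW620 by -2.84 in AHR. HCT-116 differed from the unlabelled MiaPaca2 array by 1.80 in ABCB1, and HPAFII from it by -0.13 in ABCG2.

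Pancreatic and colorectal lines were not told apart by these genes. On line means, 5 pancreatic against 3 colorectal, limma called none of the 9 members, and none had an unadjusted p under 0.05. Over all genes it called 2, or 0.0109%, both higher in pancreatic lines, and 1441 had an unadjusted p under 0.05. CYP1B1 averaged 0.61 ± 2.07 in pancreatic and -1.48 ± 2.14 in colorectal lines (SD over lines), a difference of 2.08 with an interval of -0.94 to 5.10. DPYD averaged 0.75 ± 1.71 in pancreatic and -1.14 ± 0.88 in colorectal lines, a difference of 1.89 with an interval of -0.27 to 4.05. ABCC2 differed by -0.90, ABCB1 by -0.89, ABCG2 by 0.85, ABCC3 by 0.33 and CYP1A1 by 0.27. AHR differed by 0.03 and CYP3A5 by 0.15, with intervals of -2.37 to 2.44 and -1.83 to 2.13. For every member the levels of the groups of lines overlapped.

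The wider pathways around the members were described through 7 lists with 107 genes, of which 93 were measured. In Panc1 against HT29, 23 of the 93 were higher and 29 lower, which is 55.9% beside 37.3% of all genes, with a median difference of -0.22 against 0.07. In MiaPaca2 against HT29, 18 were higher and 20 lower, 40.9% beside 31.9%, with a median of -0.15 against 0.03. In MiaPaca2 against Panc1, 9 were higher and 12 lower, 22.6% beside 18.7%. No list gene was called between pancreatic and colorectal lines. The share of each list below is to be read beside these shares of all genes, 37.3%, 31.9% and 18.7% in the same order of comparisons.

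**Figure D4:**
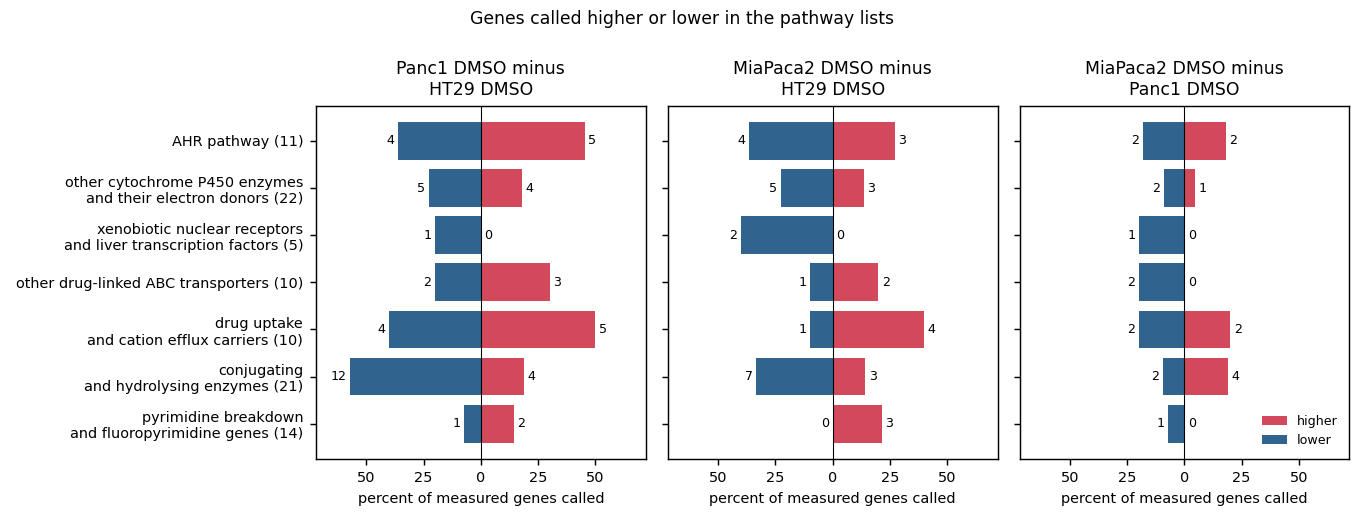
Percent of the measured genes of each pathway list (number measured in parentheses) that limma called higher (right) or lower (left) at an adjusted p under 0.05 over all genes, in 3 comparisons. The numbers beside the bars count genes. In Panc1 against HT29, 12 of 21 conjugating and hydrolysing enzymes were lower and 4 higher.

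Of 11 genes of the receptor pathway, 5 were higher and 4 lower in Panc1 than in HT29, or 81.8% beside 37.3% of all genes. The strongest differences were in other targets of the receptor, the glucuronosyltransferase UGT1A6 at -5.16 and the aldehyde dehydrogenase ALDH3A1 at -4.48. In MiaPaca2 against HT29, 3 were higher and 4 lower (63.6% beside 31.9%), with UGT1A6 at -5.42 and ALDH3A1 at -3.44. UGT1 genes share exons, so UGT1A6 cannot be told from its neighbours here. Between MiaPaca2 and Panc1, 2 were higher and 2 lower (36.4% beside 18.7%). AHRR, the repressor of the receptor that is itself induced by it, was lower in MiaPaca2 at -1.68, and the quinone reductase NQO1 was higher by 1.57.

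Among 22 other P450 genes and electron donors, 4 were higher and 5 lower in Panc1 than in HT29 (40.9% beside 37.3%), and 3 and 5 in MiaPaca2 (36.4% beside 31.9%). CYP3A7 and CYP3A4, the fetal and the main adult liver forms, were lower by the widest margins. CYP3A7 stood at -1.36 in Panc1 and -1.98 in MiaPaca2, against 3.76 in HT29, and CYP3A4 differed by -4.92 in both. Signals of these close relatives of CYP3A5 and of its own features may not be separate, which was not tested. Between MiaPaca2 and Panc1 1 was higher and 2 lower (13.6% beside 18.7%), among them CYP2J2 at -2.05 and CYP4F11, higher by 0.96. Of 5 measured nuclear receptors and liver factors, 20% were called in Panc1 against HT29, 40% in MiaPaca2 against HT29 and 20% in MiaPaca2 against Panc1. PPARA was lower in Panc1 (-1.39) and in MiaPaca2 (-0.83) than in HT29, and VDR was lower in MiaPaca2 than in HT29 (-1.42) and than in Panc1 (-1.66).

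Of 10 other drug-linked ABC transporters, 3 were higher and 2 lower in Panc1 than in HT29 (50% beside 37.3%), and 2 and 1 in MiaPaca2 (30% beside 31.9%). ABCA3, a lipid transporter of lamellar bodies, was higher by 4.87 in Panc1 and by 4.02 in MiaPaca2, and ABCC5, an exporter of cyclic nucleotides, by 1.24 and 1.12. In MiaPaca2 against Panc1 none was higher, and ABCA3 (-0.85) and ABCC10 (-0.74) were lower (20% beside 18.7%). Of 10 uptake and cation carriers, 5 were higher and 4 lower in Panc1 than in HT29 (90% beside 37.3%), 4 and 1 in MiaPaca2 (50% beside 31.9%), and 2 and 2 in MiaPaca2 against Panc1 (40% beside 18.7%). The carnitine and ergothioneine carrier SLC22A4 was higher by 4.80 in Panc1 and 3.03 in MiaPaca2, and the cation exporter SLC47A1 by 3.47 and 4.18. SLCO1B3, an organic anion carrier of liver, was higher in MiaPaca2 than in Panc1 by 3.60, at 4.61 and 1.01, and SLCO1B1 by 1.94 although it lay below the reference in both lines (-2.20 and -4.14).

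Of 21 conjugating and hydrolysing enzymes, 3 were higher and 7 lower in MiaPaca2 than in HT29 (47.6% beside 31.9%), with the glutathione transferase GSTM3 higher by 2.74 and UGT2B7 at -3.13. In Panc1 against HT29, the carboxylesterase CES1 was higher by 4.81 and GSTM3 by 3.41, in a list with 4 higher and 12 lower (76.2% beside 37.3%). CES1 was lower in MiaPaca2 than in Panc1 at -4.58, and the acetyltransferase NAT1 was higher by 2.17, in a list with 4 higher and 2 lower (28.6% beside 18.7%). Among 14 genes around fluoropyrimidine metabolism, UPP1, uridine phosphorylase, was higher than in HT29 by 1.86 in Panc1 and by 1.10 in MiaPaca2. TYMS, thymidylate synthase, was higher in MiaPaca2 by 0.89, and TYMP, thymidine phosphorylase, was higher in Panc1 than in HT29 by 1.01 and lower in MiaPaca2 than in Panc1 at -1.22. Called were 2 higher and 1 lower, 3 higher, and 1 lower in the 3 comparisons, or 21.4%, 21.4% and 7.14% of the list beside 37.3%, 31.9% and 18.7% of all genes.

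The genes with line profiles most like those of the members were found by the root mean square distance between centred means of the 8 lines. For AHR they were BMAL2 (0.507), STEAP2 (0.52) and SLC52A3 (0.527), against a median distance of 1.53 over all genes. For ABCC3 they were XK (0.596), ARAP2 and EPS8L1, all lowest in MiaPaca2. CYP1B1 was nearest to TNFRSF11A (0.809), PLOD2 and CCN2, all highest in Panc1, and ABCG2 to PLCE1 (0.984), TNFRSF11A and SEMA3E. DPYD was nearest to PLK2 (0.487), CNTLN and SGK1, all highest in MiaPaca2, and ABCC2 to ATP4A (0.575), EGR3 and PLEKHA4. ABCB1 was nearest to ENO3 (0.379), PIP4P2 and VWCE, and CYP3A5 to RBPMS-AS1 (0.394), MECOM and CHMP4B. CYP1A1 was nearest to YTHDF1 (0.081), MADD and ZBP1, in a profile with little variation. The points of a profile share the reference RNA, and those of Panc1, HT29 and MiaPaca2 alone average several arrays.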

How the data were processed

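Per the labels, Cy5 marked cell line RNA and Cy3 the reference. The authors deposited 1 value per feature and array, read here as log2 ratios because values ran from -10.71 to 9.61 around array medians of -0.001 to 0.042. The sources used here do not state the log base, the background correction or the normalization, and intensities were not used.

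Features were named through the platform annotation. Of 45220, 31332 had 1 symbol, 93 several and 13795 none, and only the first were used. Gene identifiers of 31291 were found in the RefSeq table of GRCh38.p14. A gene was the mean of its features. Exact zeros, 0.17% of named values, were kept.

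The test was limma 3.58.1 (R 4.3.3) with moderated variances, two-sided, with Benjamini-Hochberg adjustment over 18334 genes and a threshold of 0.05. All 12 arrays in 9 groups of line and media label entered, which left 3 residual degrees of freedom beside a prior of 5.23. For origin, a second fit used the 8 line means, MiaPaca2 as the mean of its labelled and unlabelled groups. Scripts were tested on simulated data. Alternatives changed centring, normalization, the summary of features, a filter on SD, the block and the arrays included. Figures used matplotlib 3.10.9.

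Members and lists were chosen with earlier results of these data known. Named were all members, for each list and each comparison of DMSO-labelled pairs the 2 called genes with the largest absolute difference, and for each member the 3 genes of smallest profile distance. Medians of marker lists over lines ran from -0.91 (MiaPaca2) to 3.02 (HPAFII) for 5 epithelial genes, from -1.33 (MiaPaca2) to 3.66 (HPAC) for 5 pancreatic duct and gastric-type genes, from -4.47 (HPAFII) to 0.20 (Panc1) for 4 mesenchymal genes, from -4.91 to -3.31 for 4 liver genes and from -1.68 to -0.61 for 4 blood and endothelial genes.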

Additional observations from a re-analysis of the deposited data

Results flagged for a closer look

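Among the means of the 5 pancreatic lines, ABCB1 in Panc1 (0.30) lay far above the nearest line, MiaPaca2 at -1.64, by Dixon's criterion at 95%. ABCC3 in MiaPaca2 (-2.66) lay far below the nearest, HPAC at 1.36. Of 18 such tests, on the lowest and the highest line of 9 genes, these 2 passed. If line means are normally distributed, chance passes no more than about 1 in 20. The ABCC3 value passed narrowly (gap over range 0.719, against a critical value of 0.71) and did not pass with MiaPaca2 taken from its DMSO-labelled arrays alone (0.661), an alternative chosen after seeing the data. ABCB1 in Panc1 still passed then (0.818), and so did CYP1B1 in Panc1 (4.12, with 0.829). ABCB1 was read by 10 features that gave the same split, ABCC3 by 1.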

How the results depend on the processing

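Of 876 results on single members, 827 kept their side of the threshold and, except for the F-test, their direction. Of the rest, 35 turned sign, 10 fell short and 4 newly passed. Many differences could not change. The summary of features cannot alter that of a member read by 1 feature, nor can leaving out an array of a group not compared. The share that stayed the same is therefore no measure of robustness. Counts of called members were 7 throughout for MiaPaca2 against HT29 and against Panc1, 8 for the F-test and 0 for pancreatic against colorectal lines. Panc1 against HT29 gave 3 to 5. For MiaPaca2 with the DMSO label against the unlabelled array the count of 2 became 4 with the replicate number as a block, where ABCC3 (2.38) and DPYD (-2.34) passed, and 0 to 2 without 1 array. Deviations of same-numbered arrays from their group means correlated at 0.144, -0.0098 and -0.134. With 2 arrays per group and different lines, these values cannot settle whether the numbers pair the arrays. With the block, DPYD in Panc1 against HT29 (-0.93) no longer passed, and ABCG2 there (0.068) and ABCB1 in MiaPaca2 against HT29 (-0.0062) turned sign.

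None of the 35 values that turned sign was called. Without 1 array, Panc1 against HT29 ran from -0.29 to 0.51 for CYP1A1, from -0.81 to 0.13 for ABCC3 and from -0.22 to 0.19 for ABCG2, and quantile normalization gave 0.023 for ABCG2. MiaPaca2 against HT29 ran from -0.64 to 0.15 for CYP1A1 and from -0.0024 to 0.23 for ABCB1, which was -0.15 with quantile normalization and -0.046 with 3 MiaPaca2 arrays as one group. MiaPaca2 against Panc1 gave CYP3A5 at 0.0041 with arrays shifted to a median of 0, 0.0027 with quantile normalization and 0.17 with its most variable feature. Within MiaPaca2, CYP1A1 ran from -0.42 to 0.15, CYP3A5 was -0.39 with the median of features and AHR -0.14 with quantile normalization. Between pancreatic and colorectal lines, leaving out 1 line or array gave -0.31 to 0.97 for CYP3A5, -0.45 to 0.85 for AHR, -1.94 to 0.091 for ABCC2, -0.35 to 1.34 for ABCC3 and -0.27 to 2.40 for ABCG2. With line as a random block CYP3A5 was -0.049 and AHR -0.13, and quantile normalization gave AHR -0.032. The causes were not tested.

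Single features, an alternative chosen after seeing the data, turned the called CYP3A5 difference from HT29 to 0.25 in Panc1 and 0.013 in MiaPaca2 (feature c). CYP3A5 feature b gave 0.17 against Panc1, features a and c gave -0.39 and -0.11 within MiaPaca2, and 2 of 10 ABCB1 features gave -0.14 and -0.32 in MiaPaca2 against HT29. DPYD passed in Panc1 against HT29 by feature a alone, and in MiaPaca2 against HT29 by features b and c but not a (1.51). In that fit CYP1B1 (2.14) and ABCG2 (-2.18) did not pass within MiaPaca2.

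Of all genes, 6831 were called in Panc1 against HT29, and 4135 and 4495 without Panc1 replicates 1 and 4. In MiaPaca2 against Panc1 the 3422 calls became 1661 and 1656 without the same arrays. Within MiaPaca2 the 110 calls became 62 without the less variable genes or without either Panc1 array, 35 without either HT29 array, and 24 and 243 without MiaPaca2 replicates 1 and 2. Between pancreatic and colorectal lines the 2 calls became 0 to 14. The filter on SD left out CYP1A1. Of 243 levels of a member in a group under other centring, normalization or choice of feature, 31 moved by at least the pooled SD of the DMSO-labelled pairs. With quantile normalization HT29 became highest in CYP3A5, Panc1 highest in ABCG2 and DMSO-labelled MiaPaca2 lowest in AHR. With the most variable feature Panc1 became highest in ABCB1 and HCT-116 in ABCC2. Each of these alternatives made HPAC lowest in ABCB1. The other highest and lowest groups stayed the same. With no intensities, dim features could not be told from bright ones.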
